A study of Rattus norvegicus with 6 samples.

Results

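Genes of endothelial cells, of their barrier and of the mural cells around them were measured in the fifth lumbar (L5) dorsal root ganglion (DRG) of the rat after spinal nerve transection. The genes were chosen by symbol and not by a cut on their values, but with earlier results of these data known. Of 54 listed symbols, 45 had a transcript cluster annotated to that symbol alone, out of 13215 genes so annotated. Where a gene had more than 1 cluster, the cluster with the highest mean over 6 arrays stood for it. The remaining 9 genes, namely Pecam1, Cdh5, Eng, Sox18, Ocln, Cav2, Acta2, Mylk and Abcc9, were not analysed here, and Ocln was held only by 2 clusters that carried another symbol too.

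The injured group was L5 DRG of male Wistar rats 7 days after transection of the L5 spinal nerve (SNT), and its control was L5 DRG of naive male Wistar rats. Each group had 3 Affymetrix exon arrays, each array carried polyadenylated RNA pooled from 4 animals, and so 12 animals stood behind each group. No sham operation was included, so effects of surgery and of the nerve cut cannot be told apart, and the sources used here do not give the ages of the rats. In RNA of whole ganglia, fewer cells of a type and less RNA per cell cannot be told apart. Values are log2 values of the deposited table, and a difference is SNT minus naive with its standard error (n = 3 in each group). A gene is said to rise or fall where the limma test over all 19418 clusters gave an adjusted p under a false discovery rate (FDR) of 0.1.

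Sensory ganglia are densely supplied with vessels, and the vessels around the cell bodies are known to be more permeable than those of the nerve trunk or the brain. Endothelial cells line these vessels, seal their contacts with claudins and other junction proteins, pump compounds back into the blood with ABC transporters, and, when activated, display selectins and immunoglobulin-family adhesion molecules that catch leukocytes. Pericytes and smooth muscle cells, together called mural cells, wrap the endothelial tube and set its calibre and stability. ANGPT1 and ANGPT2 are ligands of the endothelial receptor TEK (also called TIE2), of which TIE1 is a co-receptor.

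SNT replicate 1 stood apart from the other SNT arrays: it correlated with them over all clusters at r = 0.982 and with the naive arrays at r = 0.978 to 0.981, whereas SNT replicates 2 and 3 correlated at r = 0.990. Atf3, a transcription factor of injured neurons, lay at 11.36 to 11.63 in the SNT arrays and at 7.69 to 7.74 in the naive arrays, as the labels require. The median difference over all clusters was 0.087, so values near it lie near the middle of the table. Markers of the other cells in the ganglion moved as well. All 11 measured macrophage genes rose (median difference 1.66), with a summed level of 12.38 to 13.28 in the SNT arrays and 10.69 to 11.14 in the naive arrays (log2 of the sum of unlogged values). Of 9 fibroblast and perineurial genes 6 rose (median 0.37), with a summed level of 13.97 to 14.23 in SNT and 13.60 to 13.92 in naive arrays. The rises numbered 2 with median centring and when SNT replicate 3 or naive replicate 1 or 2 was left out, and 3 when naive replicate 3 was. Of 8 neuronal genes 5 fell and 0 rose (median -0.80, with a summed level of 14.62 to 15.06 in SNT and 15.38 to 15.43 in naive arrays). For comparison with these counts, 19.9% of all genes rose and 18.3% fell. Several members are also made by macrophages, fibroblasts or glia, and the part of these cells in the results below was not tested.

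Of the 45 vascular genes 15 rose, 4 fell and 26 were not called, which makes 42.2% called, against 38.2% of all 13215 genes and 32.1% of all clusters. By direction, 33.3% of the members rose, against 19.9% of all genes, and 8.89% fell, against 18.3% of all genes. Their median difference was 0.14, against 0.073 over all genes. The SNT arrays lay wholly above the naive arrays for 17 members and wholly below them for 6, which makes 51.1%, against 51.6% of all genes. A fold change of 2 or more was reached by 1 member, Anpep, whereas it was reached by 5.56% of all genes and 4.39% of all clusters. Icam1 and Selp, both adhesion molecules, rose most clearly among the members listed as endothelial, and the part of other cells in these rises was not tested. The transporters Abcg2, Mfsd2a and Slco1c1 fell, and the measured contractile genes of smooth muscle were not called. Without naive replicate 1, 10 members rose and 2 fell, without naive replicate 3, 11 rose and 2 fell, and without SNT replicate 1, 14 rose and 4 fell. With each array centred on its median, 10 rose and 5 fell, so that rises made up 66.7% of the calls rather than 78.9%.

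**Figure D1:**
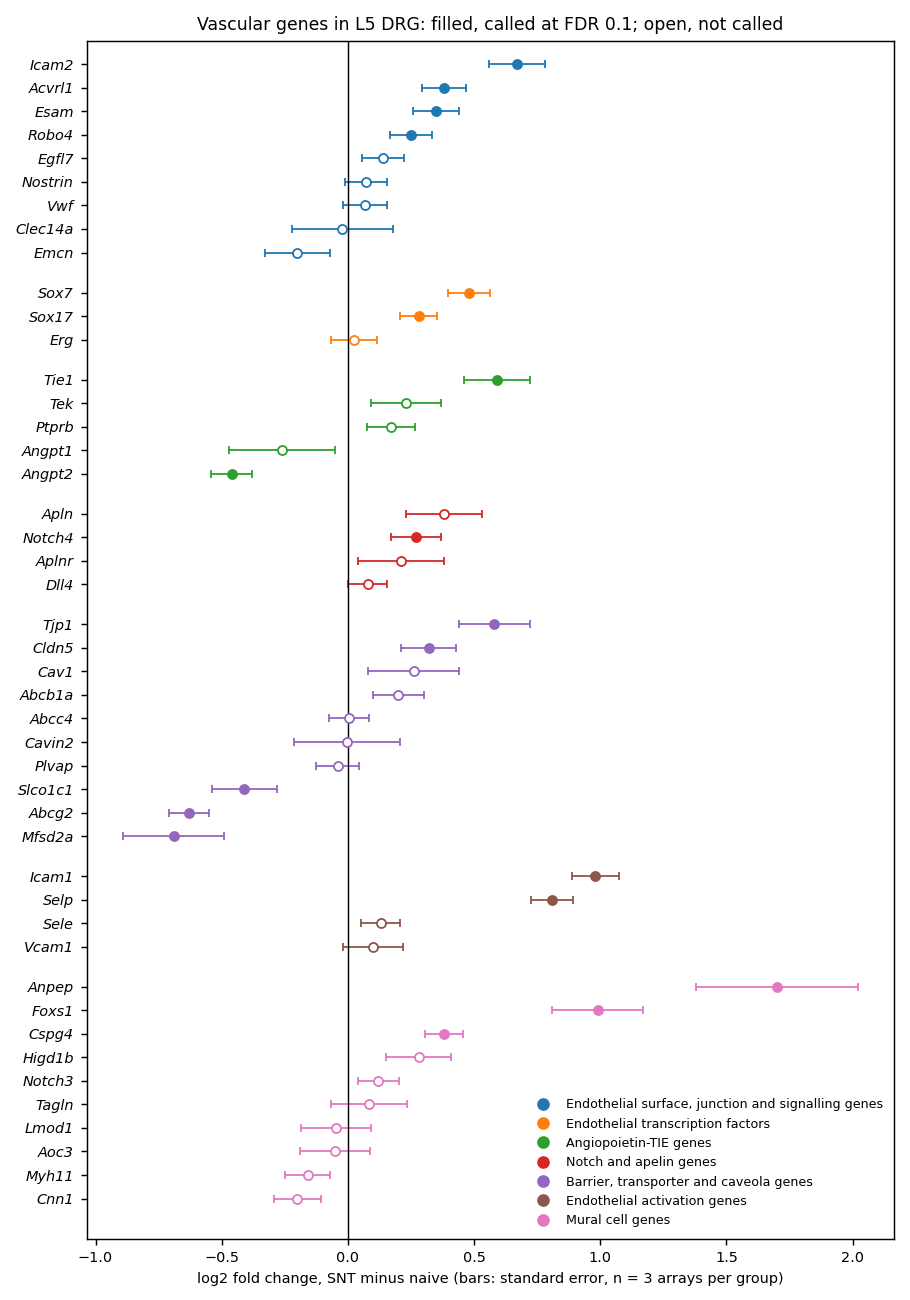
Log2 fold change (SNT minus naive, horizontal axis) of the 45 measured vascular genes in 7 functional groups, with standard errors from the limma fit (n = 3 arrays per group); filled points were called at FDR 0.1. Most filled points lie between 0.25 and 1.00, Anpep lies at 1.70, and Slco1c1, Angpt2, Abcg2 and Mfsd2a lie at -0.41, -0.46, -0.63 and -0.69.

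Genes of the endothelial surface and its junctions differed by -0.20 to 0.67, and those that were called rose. Among the 9 that were measured, 4 passed upward and 0 downward (median difference 0.14), which makes 44.4% that rose, against 19.9% of all genes. Icam2, a constitutive endothelial ligand of leukocyte integrins, stood at 6.34, 6.73 and 6.61 in SNT replicates 1 to 3 and at 5.88, 5.85 and 5.95 in naive replicates 1 to 3. All SNT arrays lay above all naive arrays, and the difference was 0.67 ± 0.11 (1.59-fold, adjusted p = 0.0103 in the limma fit). Acvrl1, which encodes the receptor ALK1 for bone morphogenetic proteins of the endothelium, stood at 6.93, 6.88 and 6.98 in SNT and at 6.56, 6.43 and 6.66 in naive arrays. It rose by 0.38 ± 0.087 (adjusted p = 0.0237), and its groups did not overlap. Esam, an adhesion molecule of endothelial junctions, stood at 7.49, 7.65 and 7.73 in SNT and at 7.26, 7.22 and 7.33 in naive arrays. It rose by 0.35 ± 0.091 (adjusted p = 0.0349), also without overlap, a call lost with median centring (adjusted p = 0.167) and when either of the first 2 naive replicates was left out (adjusted p = 0.123 and 0.124). Robo4, a receptor that stabilises vessels, stood at 6.50, 6.31 and 6.40 in SNT and at 6.23, 6.14 and 6.09 in naive arrays (0.25 ± 0.085, adjusted p = 0.0784). That call was among the least stable, being lost without SNT replicate 1 (adjusted p = 0.114) or 3 (0.132) and without naive replicate 1, 2 or 3 (adjusted p = 0.143, 0.204 and 0.231). Without naive replicate 1 or 2 the group therefore held 2 rises.

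The remaining genes of this group gave no call. Vwf, the von Willebrand factor stored in endothelial granules, stood at 7.81, 7.95 and 7.98 in SNT and at 7.88, 7.76 and 7.89 in naive arrays. Its groups overlapped, and the 95% interval of the difference ran from -0.14 to 0.27. A second Vwf cluster also gave no call (0.18 ± 0.11, adjusted p = 0.278). Emcn, a sialomucin of capillary and venous endothelium, stood at 8.11, 8.34 and 8.37 in SNT and at 8.60, 8.26 and 8.58 in naive arrays (interval -0.50 to 0.094). Egfl7, a matrix protein secreted by endothelium, differed by 0.14 ± 0.084 and Nostrin, which traffics endothelial nitric oxide synthase, by 0.072 ± 0.084. Clec14a, an endothelial lectin, was spread most within the SNT group, at 6.67, 6.58 and 5.92, against 6.41, 6.37 and 6.46 in naive arrays.

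Of the 3 endothelial transcription factors measured, Sox7 and Sox17 rose, which are SOXF factors of the endothelium, and Erg gave no call. These rises make 66.7% of only 3 genes, against 19.9% of all genes. Sox7 stood at 5.68, 5.48 and 5.59 in SNT and at 5.12, 5.06 and 5.13 in naive arrays, with no overlap. The difference was 0.48 ± 0.082 (1.39-fold, adjusted p = 0.0105), and its call was kept in each of 17 alternative analyses. After quantile normalisation it was 0.35. All Sox7 values, like the naive values of Sox17 and Icam2, lay below the array medians (6.11 to 6.31), where low values may hold nonspecific signal. Sox17, a factor of arterial endothelium, stood at 6.39, 6.29 and 6.29 in SNT and at 6.05, 6.07 and 6.02 in naive arrays (0.28 ± 0.073, adjusted p = 0.0360). Its groups did not overlap either, but 6 of 17 alternatives lost the call, and with any 1 naive array left out the adjusted p was 0.128, 0.109 and 0.128 (replicates 1 to 3), so that 1 of the 3 factors then rose. Erg, an ETS factor that maintains endothelial identity, stood at 6.24, 6.34 and 6.24 in SNT and at 6.24, 6.13 and 6.38 in naive arrays. Its interval ran from -0.19 to 0.24, and its difference of 0.025 turned negative under each of 3 other normalisations.

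The angiopoietin-TIE genes moved in both directions. Of 5 measured, 1 rose and 1 fell, which makes 40.0% called, against 38.2% of all genes. Tie1 stood at 7.36, 7.78 and 7.45 in SNT and at 7.03, 6.86 and 6.94 in naive arrays. It rose by 0.59 ± 0.13 (1.50-fold, adjusted p = 0.0187), with all SNT arrays above the naive arrays. Angpt2, a ligand released by endothelial cells that antagonises TEK in many settings, stood at 6.96, 6.86 and 6.92 in SNT and at 7.48, 7.31 and 7.34 in naive arrays. It fell by 0.46 on the log2 scale (SE 0.081, naive 1.38-fold over SNT, adjusted p = 0.0111), with all SNT arrays below the naive arrays. Both calls were kept in each of 17 alternatives.

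The receptor Tek stood at 6.96, 7.36 and 7.39 in SNT and at 7.10, 6.84 and 7.09 in naive arrays (0.23 ± 0.14, adjusted p = 0.289). Its groups overlapped through SNT replicate 1, and without that array its difference was 0.36 (adjusted p = 0.0474). Ptprb, the phosphatase that dephosphorylates TEK, behaved alike in this respect, at 7.23, 7.43 and 7.47 in SNT and 7.30, 7.12 and 7.20 in naive arrays (adjusted p = 0.259, and 0.0796 without SNT replicate 1). Without that array 3 of the 5 genes therefore rose. Angpt1, the TEK agonist made by mural and other perivascular cells, was spread widely in both groups, at 6.24, 6.40 and 5.91 in SNT and 6.75, 6.03 and 6.53 in naive arrays (interval -0.75 to 0.24).

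Of the Notch and apelin genes 1 of 4 passed the threshold, and narrowly, which makes 25.0% called, against 38.2% of all genes. Notch4, an endothelial Notch receptor, stood at 6.85, 6.76 and 6.59 in SNT and at 6.38, 6.45 and 6.57 in naive arrays (0.27 ± 0.099, adjusted p = 0.0981). The lowest SNT array lay just above the highest naive array, and 13 of 17 alternatives lost the call, among them the fits without SNT replicate 1 (adjusted p = 0.163) or 2 (0.186) and without naive replicate 1, 2 or 3 (adjusted p = 0.290, 0.228 and 0.132). Its ligand Dll4, a gene of arterial and sprouting endothelium, differed by 0.078 ± 0.077. Apln, the peptide apelin of sprouting endothelium, stood at 7.54, 7.20 and 6.93 in SNT and at 6.82, 6.78 and 6.93 in naive arrays (0.38 ± 0.15, adjusted p = 0.126). SNT replicate 3 and naive replicate 3 were equal to 2 decimals, although all SNT arrays lay above the naive arrays before rounding, and without SNT replicate 3 the adjusted p was 0.0443 and 2 genes of the group rose. The apelin receptor Aplnr stood at 6.51, 6.15 and 6.82 in SNT and at 6.32, 6.22 and 6.30 in naive arrays (adjusted p = 0.390, and 0.0758 without SNT replicate 2).

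In the barrier group 3 of 10 measured genes fell, the transporters Abcg2, Mfsd2a and Slco1c1, and 2 rose, the junction genes Tjp1 and Cldn5, with a median near 0 (0.00019). Called genes made 50.0%, against 38.2% of all genes. Falls made 30.0% of these 10 genes, against 18.3% of all genes, and rises 20.0%, against 19.9%. Abcg2, an efflux transporter of the luminal endothelial membrane, stood at 6.98, 6.89 and 6.86 in SNT and at 7.50, 7.50 and 7.63 in naive arrays. It fell by 0.63 on the log2 scale (SE 0.080, naive 1.55-fold over SNT, adjusted p = 0.00549), its groups were far apart compared with their spread, and the call was kept in each of 17 alternatives. Mfsd2a, the transporter of lysophosphatidylcholine-bound omega-3 fatty acids that also restrains transcytosis at the blood-brain barrier, stood at 7.84, 7.03 and 7.34 in SNT and at 8.13, 8.05 and 8.12 in naive arrays. It fell by 0.69 (SE 0.20, adjusted p = 0.0448), and all SNT arrays lay below the naive arrays although they were spread over a wider range. The call was lost without SNT replicate 3 (adjusted p = 0.103) or naive replicate 1, 2 or 3 (adjusted p = 0.133, 0.112 and 0.118). Slco1c1, which carries thyroxine at the blood-brain barrier, stood at 5.74, 5.44 and 5.77 in SNT and at 6.02, 5.90 and 6.26 in naive arrays. It fell by 0.41 (SE 0.13, adjusted p = 0.0672) without overlap, a call lost without SNT replicate 2 (adjusted p = 0.149) or naive replicate 1 (0.157) or 3 (0.192). Its SNT values lay below the array medians (6.11 to 6.31), where low values may hold nonspecific signal. Without naive replicate 1 or 3, 1 gene of the group fell, namely Abcg2.

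The efflux transporters did not all move with Abcg2. Abcb1a, which encodes P-glycoprotein, stood at 7.37, 7.42 and 7.46 in SNT and at 7.19, 7.05 and 7.39 in naive arrays (0.20 ± 0.10, adjusted p = 0.199). Abcc4, a multidrug resistance protein that exports organic anions, differed by 0.0035 ± 0.080, with an interval of -0.19 to 0.19. Abcb1b, the other rat gene for P-glycoprotein, which was outside the list of members and was named after its value was seen, stood at 5.85, 6.40 and 5.96 in SNT and at 5.51, 5.39 and 5.59 in naive arrays. It rose (0.58 ± 0.15, 1.49-fold, adjusted p = 0.0362) without overlap, in the direction opposite to Abcg2. The difference between these genes and Abcg2 was not itself tested.

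Tjp1, which encodes the junction scaffold ZO-1 of endothelium and of many other cells, stood at 9.67, 9.97 and 10.09 in SNT and at 9.41, 9.16 and 9.45 in naive arrays. It rose by 0.58 ± 0.14 (1.49-fold, adjusted p = 0.0260) without overlap, and its call was kept in each of 17 alternatives. Cldn5, the main claudin of endothelial tight junctions, stood at 8.69, 8.60 and 8.38 in SNT and at 8.13, 8.23 and 8.36 in naive arrays (0.32 ± 0.11, adjusted p = 0.0802). The lowest SNT array and the highest naive array lay side by side, and 9 of 17 alternatives lost the call, those without SNT replicate 1 (adjusted p = 0.139) or 2 (0.167) and without naive replicate 1, 2 or 3 (adjusted p = 0.248, 0.195 and 0.107) among them, which left 1 rise in the group. Plvap, the protein of fenestral diaphragms and a sign of leaky endothelium, stood at 6.59, 6.60 and 6.68 in SNT and at 6.69, 6.56 and 6.75 in naive arrays (interval -0.24 to 0.16). The caveola genes Cav1 (0.26 ± 0.18) and Cavin2 (-0.0031 ± 0.21) were spread within both groups: Cav1 stood at 10.99, 10.89 and 11.21 in SNT and at 10.98, 10.39 and 10.94 in naive arrays, and Cavin2 at 7.28, 6.88 and 7.53 in SNT and at 7.44, 6.87 and 7.39 in naive arrays.

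**Figure D2:**
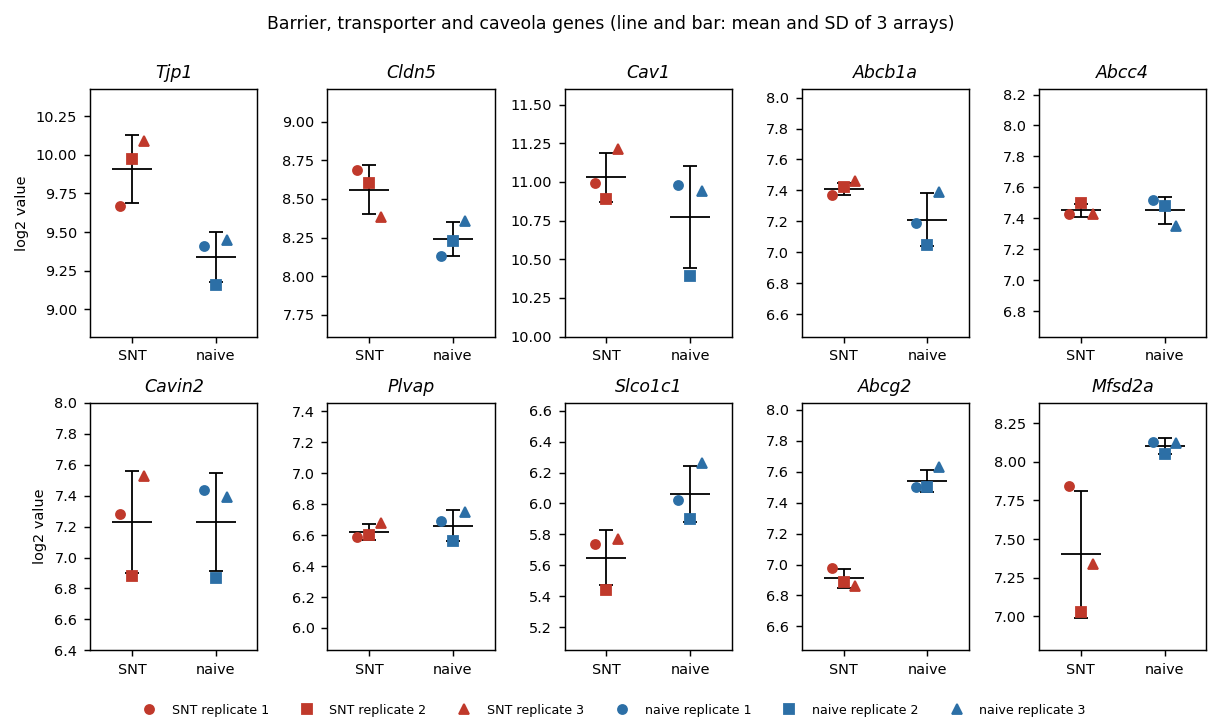
Log2 values per array (vertical axis, own scale for each gene) of the 10 measured barrier, transporter and caveola genes in SNT (left) and naive (right) arrays, with the mean and SD of 3 arrays. Abcg2, Mfsd2a and Slco1c1 lie lower in every SNT array than in any naive array, Tjp1 and Cldn5 lie higher, and the groups overlap for Abcb1a, Abcc4, Cavin2, Plvap and Cav1.

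Of 26 other barrier and transport genes measured, 9 rose and 1 fell (median 0.16), which makes 38.5% called, near the 38.2% of all genes. The directions were less alike: 34.6% rose, against 19.9% of all genes, and 3.85% fell, against 18.3%. The gene that fell was Tfrc, the transferrin receptor of brain endothelium and of dividing and iron-requiring cells (-0.83 ± 0.071, adjusted p = 0.00246). Slco2b1, an organic anion transporter (0.72 ± 0.12), the endocytic receptor Lrp1 (0.65 ± 0.13) and Ager, the receptor for advanced glycation end products (0.44 ± 0.094), rose, and each is made by cells other than endothelium as well. Without naive replicate 1 the rises numbered 3 and without naive replicate 2 they numbered 4, and 5 with median centring. Without SNT replicate 1, 2 of these genes fell.

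The adhesion molecules that activated endothelium shows to leukocytes split into a pair that rose and a pair that gave no call. That pair makes 50.0% of only 4 genes, whereas 19.9% of all genes rose. Icam1, the ligand of leukocyte β2 integrins, stood at 8.15, 8.41 and 8.37 in SNT and at 7.35, 7.30 and 7.34 in naive arrays. It rose by 0.98 ± 0.093 (1.97-fold, adjusted p = 0.00327), and the gap between the groups was wider than the range within either. Selp, P-selectin, which is stored in endothelial granules and in platelets, stood at 6.33, 6.50 and 6.34 in SNT and at 5.65, 5.53 and 5.58 in naive arrays. It rose by 0.81 ± 0.083 (1.75-fold, adjusted p = 0.00418). Both calls were kept in each of 17 alternatives, and without SNT replicate 1 the difference of Icam1 was 1.06. Vcam1, the ligand of the α4β1 integrin, stood at 6.65, 6.94 and 6.78 in SNT and at 6.72, 6.50 and 6.85 in naive arrays. Its groups overlapped (0.10 ± 0.12, adjusted p = 0.578), and the interval of -0.19 to 0.39 lay below that of Icam1 (0.76 to 1.20). Sele, E-selectin, which is made by endothelium on cytokine stimulation, stood at 5.07, 5.21 and 5.06 in SNT and at 5.0, 4.94 and 5.01 in naive arrays. The SNT arrays were slightly higher throughout, but the difference of 0.13 ± 0.078 did not pass (adjusted p = 0.274, interval -0.056 to 0.32), and it was -0.0025 after quantile normalisation. All Sele values, and the naive values of Selp, lay below the array medians (6.11 to 6.31), where low values may hold nonspecific signal. An undetected gene and an unchanged gene were therefore not told apart for Sele. The difference between these genes was not itself tested.

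**Figure D3:**
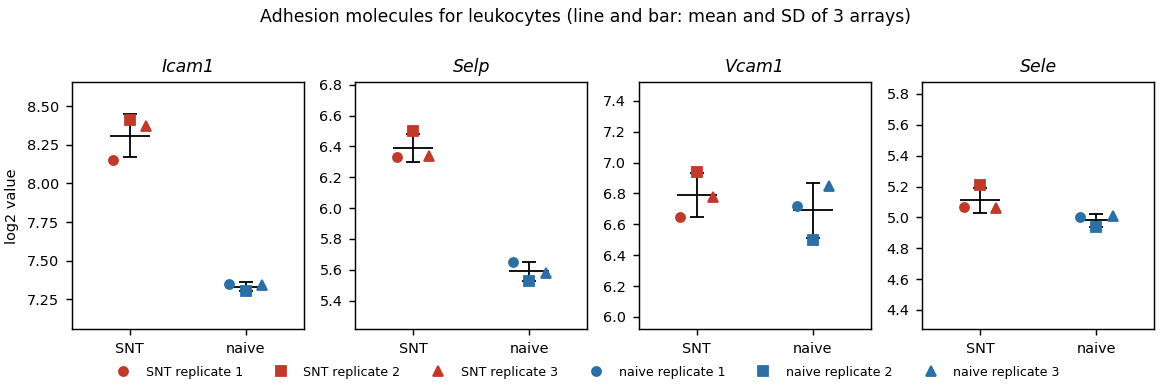
Log2 values per array (vertical axis, own scale for each gene) of Icam1, Selp, Vcam1 and Sele in SNT (left) and naive (right) arrays, with the mean and SD of 3 arrays. Icam1 and Selp are separated by 0.98 and 0.81 between group means, whereas the arrays of Vcam1 overlap and those of Sele differ by 0.13.

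The promoters of these genes are shown because adhesion molecules of activated endothelium are textbook targets of the transcription factor NF-kB, and Abcg2 is added as the clearest fall. Sequences are the 250 bases before the annotated RefSeq start (GRCr8), 5′ to 3′ on the strand of the gene, with capitals for matches to the NF-kB consensus on either strand. The table used here held promoters for 29 of the 54 listed genes, and Selp was not among them. The window of Icam1 is chr8:27829595-27829844 on the plus strand, that of Vcam1 chr2:206742784-206743033 on the minus strand, that of Sele chr13:78936264-78936513 on the plus strand and that of Abcg2 chr4:89075224-89075473 on the plus strand.
Icam1: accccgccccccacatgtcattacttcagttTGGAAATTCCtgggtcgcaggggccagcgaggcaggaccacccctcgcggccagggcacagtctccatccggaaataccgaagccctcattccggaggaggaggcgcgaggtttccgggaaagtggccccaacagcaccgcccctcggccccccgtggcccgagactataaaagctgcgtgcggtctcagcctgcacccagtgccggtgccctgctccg
Vcam1: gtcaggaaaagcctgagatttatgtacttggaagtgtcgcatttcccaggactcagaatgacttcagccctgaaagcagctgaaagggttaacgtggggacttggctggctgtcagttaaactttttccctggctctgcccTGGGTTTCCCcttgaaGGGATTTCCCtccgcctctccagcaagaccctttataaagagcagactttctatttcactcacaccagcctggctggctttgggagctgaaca
Sele: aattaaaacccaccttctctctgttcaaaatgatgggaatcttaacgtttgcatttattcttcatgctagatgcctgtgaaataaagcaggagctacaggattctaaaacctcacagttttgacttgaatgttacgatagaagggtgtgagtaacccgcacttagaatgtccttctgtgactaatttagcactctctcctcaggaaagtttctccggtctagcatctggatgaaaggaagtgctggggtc
Abcg2: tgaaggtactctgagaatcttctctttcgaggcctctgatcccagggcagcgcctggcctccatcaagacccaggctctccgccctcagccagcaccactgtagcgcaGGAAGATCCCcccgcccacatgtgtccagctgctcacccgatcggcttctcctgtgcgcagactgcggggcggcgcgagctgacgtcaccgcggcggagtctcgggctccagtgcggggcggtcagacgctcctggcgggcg
A match was found in 8 of the 29 promoters, and in 13.5% of all 27457 promoters of the same length. Icam1 had 1 match, which begins at position -219 from the start, and Vcam1 had 2 matches near each other, at positions -109 and -93. Sele had 0 matches in this window and Abcg2 had 1, at position -142. The other genes with a match were Tie1, Notch4 and Cspg4, which rose, and Eng and Ocln, which were not measured. A match says nothing of whether the factor was bound, and 0 matches says nothing of sites outside the window. Whether the annotated starts, that of Sele included, are those used in the ganglion was not tested.

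In a list of leukocyte partners of the adhesion molecules and other genes of leukocyte passage, 9 of 11 measured rose and 1 fell (median 0.96), which makes 81.8% that rose, against 19.9% of all genes. The list also holds Madcam1, an endothelial addressin, which gave no call (0.15 ± 0.15). Cd44 (0.97 ± 0.11) encodes a hyaluronan receptor that also binds selectins, and Itgal (1.52 ± 0.23), Itgam (1.66 ± 0.25) and Itgax (0.96 ± 0.14) encode α chains of β2 integrins. Further partners, named after their values were seen, rose as well: Itgb2 (1.78 ± 0.31), the β2 chain, Itga4 (0.81 ± 0.23), the α chain of the VCAM1 receptor, and Selplg (1.32 ± 0.21), the P-selectin ligand. These stood beside the rise of all macrophage genes, and Itgam belongs to that list too. The gene that fell was Cd99l2 (-0.86 ± 0.16), an adhesion protein of many cell types that takes part in leukocyte passage and was chosen for naming after its value was seen. Of 5 platelet and red cell genes 0 were called by limma, against 38.2% of all genes, and 1, Pf4, passed an unadjusted threshold of 0.05. Pf4, platelet factor 4, which macrophages make as well, stood at 7.86, 9.26 and 9.05 in SNT and at 7.91, 8.15 and 6.98 in naive arrays. Without SNT replicate 1 or with array weights 1 gene of this list rose, and 1 fell with the replicate number as a block.

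Mural cell genes split between genes of contraction, which gave no call, and 3 genes that rose, Anpep, Foxs1 and Cspg4. Calls were thus 3 upward and 0 downward among the 10 that were measured (median difference 0.10), which makes 30.0% called, against 38.2% of all genes. Taken alone, rises were 30.0% here and 19.9% of all genes. Anpep, aminopeptidase N (CD13), a surface enzyme of pericytes and also of myeloid cells and fibroblasts, stood at 8.20, 9.49 and 8.57 in SNT and at 7.09, 6.78 and 7.28 in naive arrays. It rose by 1.70 ± 0.32 (3.26-fold, adjusted p = 0.0131), the largest difference among the 45 genes. Its SNT arrays were the most widely spread of the members, with SNT replicate 2 highest and SNT replicate 1 lowest. The summed level of macrophage genes (12.38, 13.28 and 12.96 in SNT replicates 1 to 3) had that order. So did the summed level of proliferation genes (9.19, 10.19 and 9.79), and the source of the order was not tested. Without SNT replicate 2 the difference was 1.34 and without SNT replicate 1 it was 1.98, and the call was kept in each of 17 alternatives.

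Foxs1, a forkhead factor of pericytes and of developing sensory neurons, stood at 7.50, 7.83 and 8.04 in SNT and at 6.90, 6.51 and 6.99 in naive arrays. It rose by 0.99 ± 0.18 (1.98-fold, adjusted p = 0.0121) without overlap. Cspg4, the proteoglycan NG2 of pericytes and of glial progenitors, stood at 7.83, 7.80 and 7.95 in SNT and at 7.49, 7.49 and 7.48 in naive arrays, where it hardly varied. It rose by 0.38 ± 0.076 (1.30-fold, adjusted p = 0.0160). The calls of Foxs1 and Cspg4 were kept in each of 17 alternatives. Beside these genes, 6 of the 9 fibroblast and perineurial genes rose, with the level and the limits given above.

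None of the 4 measured contractile genes was called. Tagln, the actin-binding protein SM22, stood at 8.82, 9.18 and 9.31 in SNT and at 9.10, 8.86 and 9.10 in naive arrays (0.083 ± 0.15, interval -0.26 to 0.43). Myh11, smooth muscle myosin heavy chain, stood at 6.90, 6.85 and 6.83 in SNT and at 7.16, 6.92 and 6.98 in naive arrays. Cnn1, the thin-filament protein calponin, stood at 7.30, 7.22 and 7.23 in SNT and at 7.40, 7.61 and 7.35 in naive arrays. For Myh11 and Cnn1 every SNT array lay below every naive array, but the differences of -0.16 ± 0.090 (adjusted p = 0.247) and -0.20 ± 0.093 (adjusted p = 0.173) did not pass, although Cnn1 passed with median centring (-0.29, adjusted p = 0.0752). Lmod1, a nucleator of actin filaments in smooth muscle, differed by -0.047 ± 0.14.

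Among the pericyte genes that gave no call, Notch3, the mural Notch receptor, stood at 7.88, 7.80 and 7.72 in SNT and at 7.75, 7.65 and 7.64 in naive arrays (0.12 ± 0.081, interval -0.074 to 0.31). Higd1b, a mitochondrial protein enriched in pericytes, stood at 4.61, 4.33 and 4.16 in SNT and at 4.03, 4.04 and 4.19 in naive arrays, the lowest values among the members, and it passed without SNT replicate 3 (adjusted p = 0.0764). Aoc3, an amine oxidase of smooth muscle and fat, differed by -0.051 ± 0.14. Of 30 other mural cell genes measured 7 rose and 3 fell (median 0.16), which makes 33.3% called, against 38.2% of all genes. Nr2f2, a factor of venous endothelium and mural cells (0.80 ± 0.11), the integrin chain Itga7 (0.58 ± 0.083), Mustn1 (1.01 ± 0.15) and the intermediate filament desmin, Des (0.80 ± 0.16), rose, whereas Rgs4, which neurons make as well, fell (-2.10 ± 0.47) and was named after its value was seen. Sncg (-0.43 ± 0.086) and Heyl (-0.41 ± 0.12), also named after their values were seen, were the other falls. The part of neurons in these falls was not tested. Without naive replicate 2 the rises numbered 4, and without SNT replicate 1 the falls numbered 5.

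**Figure D4:**
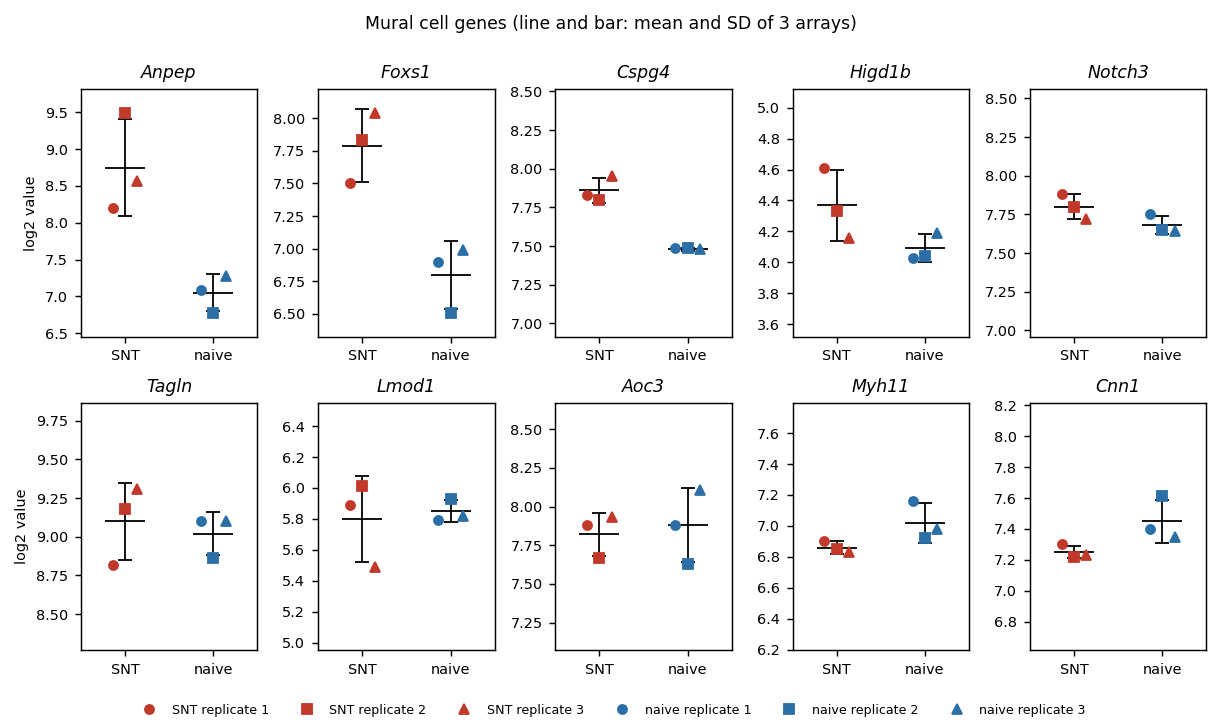
Log2 values per array (vertical axis, own scale for each gene) of the 10 measured mural cell genes in SNT (left) and naive (right) arrays, with the mean and SD of 3 arrays. Anpep, Foxs1 and Cspg4 lie higher in every SNT array than in any naive array, and Myh11 and Cnn1 lie slightly lower, by 0.16 and 0.20, without a call.

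Of 37 other endothelial genes measured 12 rose and 3 fell (median 0.20), which makes 40.5% called, near the 38.2% of all genes. Rises made 32.4%, against 19.9% of all genes, and falls 8.11%, against 18.3%. Thbd, thrombomodulin, the endothelial anticoagulant receptor (1.03 ± 0.11, 2.05-fold, adjusted p = 0.00421), the protease Adamts1 (0.98 ± 0.16) and the ETS factors Ets1 (1.04 ± 0.20) and Ets2 (0.43 ± 0.081) rose. Thbd and Ets1 are also made by immune cells. Jag2, a Notch ligand named after its value was seen, was among those that fell (-0.67 ± 0.19, adjusted p = 0.0430), but not without SNT replicate 2 or 3 (adjusted p = 0.113 and 0.106) or naive replicate 1 or 2 (adjusted p = 0.124 and 0.138). Without naive replicate 2 the rises numbered 7. With 1 naive replicate left out 0 or 1 genes fell, and without SNT replicate 2 or 3 the falls numbered 1.

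The vascular genes also varied together within the naive group. Naive replicate 2 had the lowest value of the 3 naive arrays for 34 of the 45 members (75.6%), against 31.0% of all genes, and the highest for 4 (8.89%), against 41.7% of all genes. All 4 adhesion genes, all 5 angiopoietin-TIE genes and 8 of 10 barrier genes were lowest there, and 5 of 10 mural genes were. The deviations were largest for Angpt1 (6.03, against 6.75 and 6.53 in the other naive arrays), Cav1 (10.39, against 10.98 and 10.94) and Cavin2 (6.87, against 7.44 and 7.39), while Abcg2 and Cspg4 hardly deviated. The median deviation of the members from the naive mean was -0.063 on that array, and those of macrophage genes (-0.22) and fibroblast genes (-0.14) were lower still, whereas neuronal genes lay at 0.010. In the SNT group no array held a comparable share of all members: SNT replicate 1 was lowest for 40.0% of the members and SNT replicate 3 highest for 42.2%. Shares within single groups were larger. Of the 4 adhesion genes, SNT replicate 2 was highest for 4 and SNT replicate 1 lowest for 3. The summed macrophage level was also highest on SNT replicate 2 (13.28) and lowest on SNT replicate 1 (12.38), and its part in the adhesion genes was not tested. Without naive replicate 2, 10 members rose and 3 fell.

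**Figure D5:**
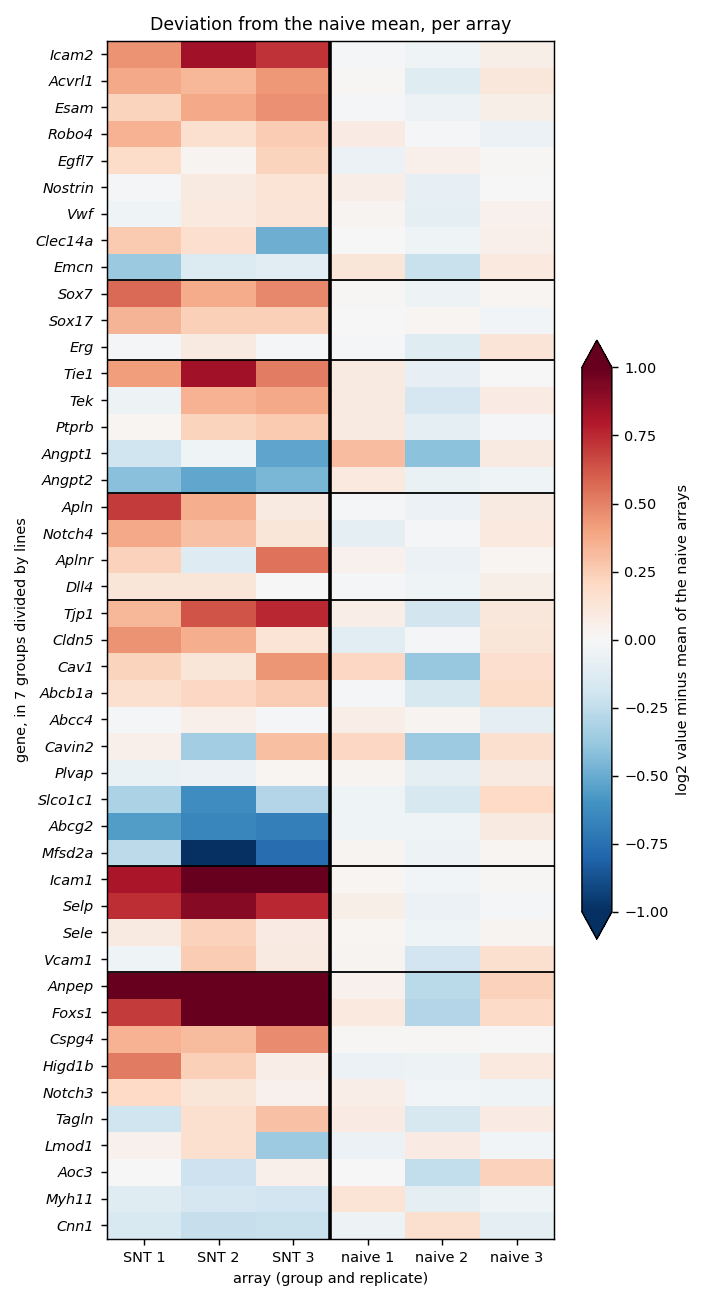
Log2 value minus the mean of the naive arrays (colour, limits of -1 and 1) for each of the 45 members (rows, 7 groups divided by lines) on each array (columns, SNT left and naive right). Icam1, Selp, Anpep and Foxs1 are high on all SNT arrays, and the column of naive replicate 2 is the low one for 34 of 45 genes.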

How the data were processed

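L5 DRG of 3 SNT and 3 naive pools were profiled on Affymetrix Rat Exon 1.0 ST arrays. With the oligo package the authors imported the scanner files, applied robust multi-array average (RMA) background correction, quantile normalisation between arrays and median polish over the probesets of a transcript cluster, and deposited log2 values. Their versions are not stated in the sources used here. Median polish tends to compress large differences, and without control probes no background level was set, so low values may hold nonspecific signal. Gene symbols came from the platform annotation of 19418 clusters, of which 13327 had 1 symbol, 620 several and 5471 none; 13232 of the first matched the RefSeq gene table (GRCr8), which altered 0 symbols.

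SNT was compared with naive with limma 3.58.1 (functions lmFit and eBayes) under R 4.3.3, and the two-sided p-values of all clusters were adjusted together by Benjamini-Hochberg, at FDR 0.1 and no fold filter, as in the study's methods. The variance prior added 2.81 degrees of freedom. Exact permutation of 3 and 3 arrays has 0.1 as its smallest p and was not used. The number of arrays limits the precision, and no read depth exists. In simulations over 19418 clusters, 37.6% of changes of 0.5, 81.5% of changes of 1 and 98.8% of changes of 2 (log2) were recovered, with 8.69% of calls false. Only a small share of the clusters was changed there, whereas 32.1% were called in the data. Both groups were drawn with a pooled spread per cluster, whereas the median SD over all genes was 0.147 in SNT and 0.0762 in naive arrays. The shares recovered therefore need not hold for these data.

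The genes were grouped by role into 7 lists, and the genes shown per array were at most 3 with the smallest adjusted p in each, those called against the majority of their list, and defining markers; of other lists, at most 4 with the smallest adjusted p. Pf4, Reln, Pdpn, Prox1, Flt4 and genes so marked in the text were named outside this rule, after their values were seen. Genes and lists were chosen with earlier results of these data known. Promoters came from RefSeq (GRCr8) and were searched for the NF-kB consensus and the CArG box, which was in 0 of 29 promoters and 1.50% of all.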

Additional observations from a re-analysis of the deposited data

How the results depend on the processing

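Each of 17 alternatives was applied alone. Of the 19 called genes 12 kept their call in all of them, namely Icam1, Icam2, Selp, Sox7, Tie1, Angpt2, Tjp1, Abcg2, Acvrl1, Anpep, Foxs1 and Cspg4. No called gene changed sign. Over all 45 genes and alternatives 764 values were obtained (Higd1b fell to the dim filter, which left 14563 of the clusters), of which 678 kept direction and side of the threshold, 49 lost and 7 gained a call, and 30 changed sign. The cause of these changes was not tested.

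Over all clusters, 3367 rose and 2865 fell. Median centring gave 1869 rises and 3403 falls, so that rises made up 35.5% of the calls rather than 54.0%, and an FDR of 0.05 gave 2198 rises and 2265 falls. Leaving out 1 array gave 1643 to 3851 rises and 1856 to 3226 falls, and among the vascular genes 10 to 16 rises and 2 to 4 falls.

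Same-numbered SNT and naive replicates did not deviate together (r = -0.0747, -0.149 and 0.054), so the numbers were not taken as pairs. With replicate number as a block 11 vascular genes rose and 4 fell, and 2380 and 2320 of all clusters. In these deviations from the group means, no SNT array correlated best with the naive array of its own number. By plain values every SNT array, replicate 3 included, correlated best with naive replicate 3.

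The sign changes concerned 12 genes that were not called. After quantile normalisation, the difference was negative for Nostrin at -0.059, Erg at -0.059, Dll4 at -0.03, Abcc4 at -0.012 and Sele at -0.0025. After cyclic loess, the difference was negative for Nostrin at -0.062, Erg at -0.081, Dll4 at -0.041, Abcc4 at -0.021 and Sele at -0.0028. With median centring, the difference was negative for Vwf at -0.019, Nostrin at -0.016, Erg at -0.063, Dll4 at -0.0096, Abcc4 at -0.084 and Tagln at -0.0046. With array weights, the difference was negative for Abcc4 at -0.0019. With 1 array left out, differences ran from -0.035 to 0.09 for Erg, -0.047 to 0.039 for Abcc4, -0.19 to 0.17 for Cavin2, -0.17 to 0.068 for Aoc3, -0.16 to 0.21 for Clec14a, -0.02 to 0.23 for Tagln, -0.16 to 0.11 for Lmod1 and -0.095 to 0.0024 for Plvap.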

Other observations

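Of 6 measured genes of lymphatic endothelium 2 rose and 0 fell (median 0.14), which makes 33.3% called, near the 38.2% of all genes: Reln (0.92 ± 0.18, adjusted p = 0.0141), at 10.16, 10.84 and 10.70 in SNT and 9.73, 9.54 and 9.67 in naive arrays, and Pdpn (0.43 ± 0.094, adjusted p = 0.0209), at 10.56, 10.75 and 10.80 in SNT and 10.21, 10.37 and 10.24 in naive arrays. Rises alone were 33.3% of this list, against 19.9% of all genes. Reelin is also made by neurons and podoplanin by fibroblasts and glia. Prox1, the factor that sets lymphatic identity, stood at 4.93, 4.71 and 4.83 in SNT and at 4.70, 4.83 and 4.75 in naive arrays, with overlap, and Flt4, the receptor for lymphatic growth factors, differed by 0.22 ± 0.099 (adjusted p = 0.157).

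Of 7 proliferation genes 6 rose (median 1.22), with a summed level of 9.19 to 10.19 in SNT and 8.41 to 8.96 in naive arrays. Those rises make 85.7%, against 19.9% of all genes. The rises numbered 3 without naive replicate 1 or 2. Which cells divided was not measured.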
